A study of Mus musculus with 60 samples.

Results

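The comparison described here sets posterior embryonic tissue (labelled P) of cultured mouse embryos exposed to EPZ005687 against the same tissue exposed to the solvent DMSO. It rests on 2 of the 60 samples of the series, 1 RNA library for each treatment, so no value below has a replicate and no test was made. All embryos were of the ICR strain, and the labels name no transgene or deletion. They were grown as explants in N2B27, a serum-free medium, for 48 hours, with EPZ005687, described in the labels as a specific EZH2 inhibitor, or with as much DMSO. Libraries of anterior embryonic (A) and extraembryonic (ExE) tissue from the same experiment, again 1 for each treatment, are used only to show where P differed. The labels give neither the stage at which the RNA embryos were taken, nor the number of embryos in a library, nor the dose. The tissue was cut out and not sorted, so a lower RNA level can mean fewer cells of a type or less RNA per cell, and the data cannot tell these apart.

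EZH2 is the enzyme that gives Polycomb repressive complex 2 (PRC2) its activity, the methylation of lysine 27 of histone H3. The trimethylated form, H3K27me3, marks silent genes, many of them regulators of development such as Hox, Pax and Gata genes, and is read by Polycomb repressive complex 1 (PRC1). In the gastrulating embryo the posterior side holds the primitive streak, from which mesoderm leaves to form, among other tissues, the heart and the blood vessels, while the first red blood cells arise in extraembryonic mesoderm of the yolk sac.

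The P library held 2173284 counts with EPZ005687 and 3413049 counts with DMSO, and the limit that a gene with 0 counts still allows, 3 counts, came to 1.38 CPM with EPZ005687 and 0.879 CPM with DMSO, the count scaled to a common library size. Levels are given as raw counts, and ratios are of CPM after TMM scaling, EPZ005687 over DMSO, with 95% intervals that cover counting error alone. A code in the column names differed between the arms and was shared by the 3 regions of an arm, so any difference in handling and the treatment cannot be told apart. The 45S ribosomal precursor RNA (Rn45s) took 6.54% of the counts with EPZ005687 and 0.0538% with DMSO, in libraries labelled polyA RNA, and the part of this in the results below was not tested.

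The label was checked against markers of posterior tissue. T (brachyury), the transcription factor of the primitive streak and tail bud, had 106 counts with EPZ005687 and 66 with DMSO. T does not set P apart, since in A it also had 100 or more counts and was at least 4-fold higher with EPZ005687. With EPZ005687 its scaled level in A was above that in P. Of the other defining markers, Fgf8 had 25 counts with EPZ005687, Cdx2 14, Msgn1, Wnt3a and Cdx1 3 each, Hoxb9 2, and Mixl1, Tbx6, Cdx4 and Evx1 0. With DMSO, Mixl1 had 22 counts, Cdx2 and Cdx4 2 each, Fgf8, Msgn1, Hoxb9 and Tbx6 1 each, and Wnt3a, Cdx1 and Evx1 0. None of these markers other than T passed 25 counts in either library, and the tissue is called P below, as it is labelled. Afp and Ttr, secreted products of visceral endoderm, had 8474 and 4994 counts with EPZ005687 and 12822 and 8221 counts with DMSO. Otx2, a marker of the anterior embryo, had 73 counts with EPZ005687 and 75 with DMSO.

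Of 23127 genes, 6598 had 100 or more counts over the 2 libraries, and these held 92.1% of the counts with EPZ005687 and 95.1% of those with DMSO. A gene abundant in 1 library enters this set through that library, so its shares do not describe the other 16529 genes. With EPZ005687, 343 genes (5.2%) were at least 4-fold higher and 805 (12.2%) at least 4-fold lower than with DMSO. The median log2 ratio was -0.26, with quartiles at -1.2 and 0.64. This balance turned with the count minimum: among the 12412 genes with 20 or more counts, 1804 were at least 4-fold higher and 1463 lower, and the median was 0.050. Heart muscle and ribosomal protein genes stood out on the high side, and red blood cell genes, beta-actin and several Wnt and pluripotency genes on the low side. The 4-fold line stands in for a threshold here, and "called" below means past it. Each count of called list members in P below is to be read beside these shares of 5.2% and 12.2%. A list near them did not differ from all genes by this count.

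**Figure D1:**
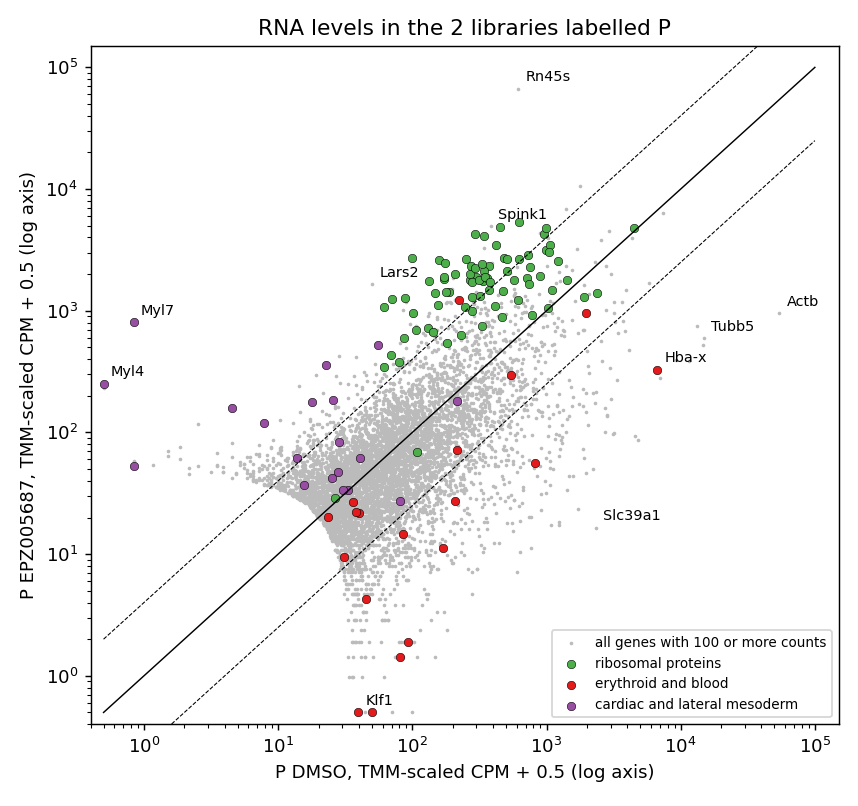
Each point is a gene with 100 or more counts over the 2 libraries, with its TMM-scaled CPM plus 0.5 with DMSO across and with EPZ005687 up, both on log axes. The solid line marks equal levels and the dashed lines 4-fold; 10 of 19 cardiac genes and 51 of 79 ribosomal protein genes lie at or above the upper dashed line, and 10 of 19 erythroid genes at or below the lower one.

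Genes of contracting heart muscle were among the largest ratios in P. Of the 32 listed genes of cardiac and lateral mesoderm, 19 had 100 or more counts, of which 10 were at least 4-fold higher with EPZ005687 and 0 at least 4-fold lower, with a median log2 ratio of 2.17 beside -0.26 over all genes. Their summed level was 3369 CPM with EPZ005687 and 683 CPM with DMSO. Of the 10 called genes, Ttn, described below, alone had 100 or more counts with DMSO. The others passed the minimum through the EPZ005687 library, which favours calls on the high side. The promoters of 3 genes from this list and a pair from the erythroid list described next are shown to set the upstream sequence of called genes of both lists side by side; they were chosen after their values and motifs were seen. Each is the 150 bases before the RefSeq start (GRCm38.p6), with capitals marking any CArG box (the site bound by serum response factor), TATAAA or CCAAT found on either strand.
Myl7, chr11:5898783-5898932, minus strand: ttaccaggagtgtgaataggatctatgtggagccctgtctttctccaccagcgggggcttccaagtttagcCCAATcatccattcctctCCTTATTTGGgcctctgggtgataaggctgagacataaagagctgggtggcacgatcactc
Myl3, chr9:110763528-110763677, plus strand: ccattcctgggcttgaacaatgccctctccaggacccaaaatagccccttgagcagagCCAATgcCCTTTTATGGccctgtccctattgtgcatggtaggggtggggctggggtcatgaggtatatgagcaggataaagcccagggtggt
Actc1, chr2:114052876-114053025, minus strand: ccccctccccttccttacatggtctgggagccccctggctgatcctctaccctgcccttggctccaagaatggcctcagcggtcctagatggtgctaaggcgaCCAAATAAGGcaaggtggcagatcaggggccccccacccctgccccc
Hba-x, chr11:32276450-32276599, plus strand: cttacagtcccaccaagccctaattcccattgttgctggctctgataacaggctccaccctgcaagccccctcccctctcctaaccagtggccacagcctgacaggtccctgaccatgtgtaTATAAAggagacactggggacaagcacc
Klf1, chr8:84901832-84901981, plus strand: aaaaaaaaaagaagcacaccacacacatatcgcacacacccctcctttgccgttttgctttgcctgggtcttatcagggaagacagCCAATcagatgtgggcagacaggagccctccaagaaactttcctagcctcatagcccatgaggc
No 2 of these motifs overlapped in the 5 promoters. Over the same 150 bases of all 27025 promoters in the RefSeq table, 0.888% held a CArG box, 8.08% TATAAA and 25.3% CCAAT. The 3 muscle promoters were the ones with a CArG box among the 15 of 19 cardiac members that had a promoter in the table, and since that is 78.9%, under 80%, no share is drawn for the list. Among the 11 of 19 erythroid members with a promoter, 1 that is not shown held a CArG box. The 5 promoters therefore do not show that this motif divides the lists.

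Myl7, the regulatory myosin light chain of atrial muscle, had 1704 counts with EPZ005687 and 1 count with DMSO, a ratio of 2385 with an interval of 428 to 94269. Myl4, the atrial essential light chain, had 535 counts with EPZ005687 against 0 with DMSO, which is at least 250-fold higher against a floor of 3 counts, with an interval that begins at 202-fold. The ventricular light chain genes were also higher, Myl2 with 111 counts with EPZ005687 and 1 with DMSO (155-fold, 27.3 to 6192) and Myl3 with 334 counts with EPZ005687 and 12 with DMSO (39-fold, 22 to 76.2). In DMSO, then, 3 of these 4 light chain genes were at 0 or 1 count. Actc1, cardiac alpha-actin, had 763 counts with EPZ005687 and 66 with DMSO, 16.2-fold higher (12.6 to 21.1). Ttn, the giant spring protein of the sarcomere, had 1103 counts with EPZ005687 against 165 with DMSO, 9.36-fold higher (7.94 to 11.1).

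The other called members, named after their values were seen, were Tnnt2, Tnnc1 and Tnni1, subunits of troponin, and Myh7, a myosin heavy chain. Tnnt2 had 255 counts with EPZ005687 and 22 with DMSO, 16.2-fold higher (10.5 to 26.4). For Tnnc1 the counts were 379 with EPZ005687 and 52 with DMSO, for Tnni1 393 with EPZ005687 and 75 with DMSO, and for Myh7 130 with EPZ005687 against 40 with DMSO, ratios of 10.2, 7.34 and 4.55. Structural genes of muscle thus made up all 10 called members. Those transcription factors of heart formation that had 100 or more counts lay closer together in the 2 libraries. Tbx20 had 175 counts with EPZ005687 and 83 with DMSO (2.95-fold, 2.26 to 3.88), Gata4 100 with EPZ005687 and 82 with DMSO (1.71-fold, 1.26 to 2.31) and Gata6 88 with EPZ005687 and 74 with DMSO (1.66-fold, 1.21 to 2.3). Mef2c ran the other way with 57 counts with EPZ005687 against 239 with DMSO, 3-fold lower (2.24 to 4.07). Below the count minimum, Nkx2-5, Tbx5, Hand2, Hand1 and Isl1 had 3, 4, 22, 8 and 38 counts with EPZ005687, and 0, 0, 4, 15 and 59 counts with DMSO. Acta2, smooth muscle actin, differed little, with 387 counts with EPZ005687 against 640 with DMSO (1.18-fold lower, 1.04 to 1.34).

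The red blood cell programme lay on the other side. Of 32 listed erythroid and blood genes, 30 were matched by symbol and 19 had 100 or more counts, of which 10 were at least 4-fold lower with EPZ005687, 1 at least 4-fold higher and the rest between, with a median log2 ratio of -2.57. Summed levels were 3094 CPM with EPZ005687 and 11419 CPM with DMSO. Members could pass the count minimum through the DMSO library alone, which favours calls on the low side. Regulators of the lineage were lower to unequal extents. Tal1, the transcription factor that starts blood formation, had 0 counts with EPZ005687 and 148 with DMSO, at least 35.2-fold lower against a floor of 3 counts, with an interval that begins at 28.3-fold. Klf1, the activator of globin genes, had 0 counts with EPZ005687 and 116 with DMSO, at least 27.6-fold lower against the floor, with an interval from 22.1-fold. Gata1, which drives red cell maturation, was still present with 19 counts with EPZ005687 and 90 with DMSO (3.38-fold lower, 2.05 to 5.88), and Runx1, named after its values were seen, had 30 counts with EPZ005687 against 252 with DMSO (6-fold lower, 4.1 to 9.08).

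The products of the red cell given here were lower as well. Hemgn, a nuclear protein of blood precursors, had 2 counts with EPZ005687 and 240 with DMSO (85.7-fold lower, 23.5 to 712). The embryonic globins differed by unequal amounts. Hba-x, embryonic zeta-like alpha globin, had 698 counts with EPZ005687 and 19879 with DMSO, 20.3-fold lower (18.9 to 22). Hbb-y, embryonic epsilon-like globin and named after its values were seen, had 119 counts with EPZ005687 against 2425 with DMSO, 14.6-fold lower (12.1 to 17.6). Hbb-bh1, another embryonic beta-like globin, had 2019 counts with EPZ005687 and 5847 with DMSO and was only 2.07-fold lower (1.97 to 2.18). Genes of heme synthesis and iron supply named in the same way were Alas2 with 8 counts with EPZ005687 and 132 with DMSO, Fech with 57 with EPZ005687 against 622 with DMSO, and Slc25a37, the mitochondrial iron carrier, with 23 with EPZ005687 and 500 with DMSO. The 1 called member on the high side was Cd24a, a surface protein also made outside blood, with 2587 counts with EPZ005687 and 667 with DMSO (5.43-fold, 4.98 to 5.92), again named after its values were seen.

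**Figure D2:**
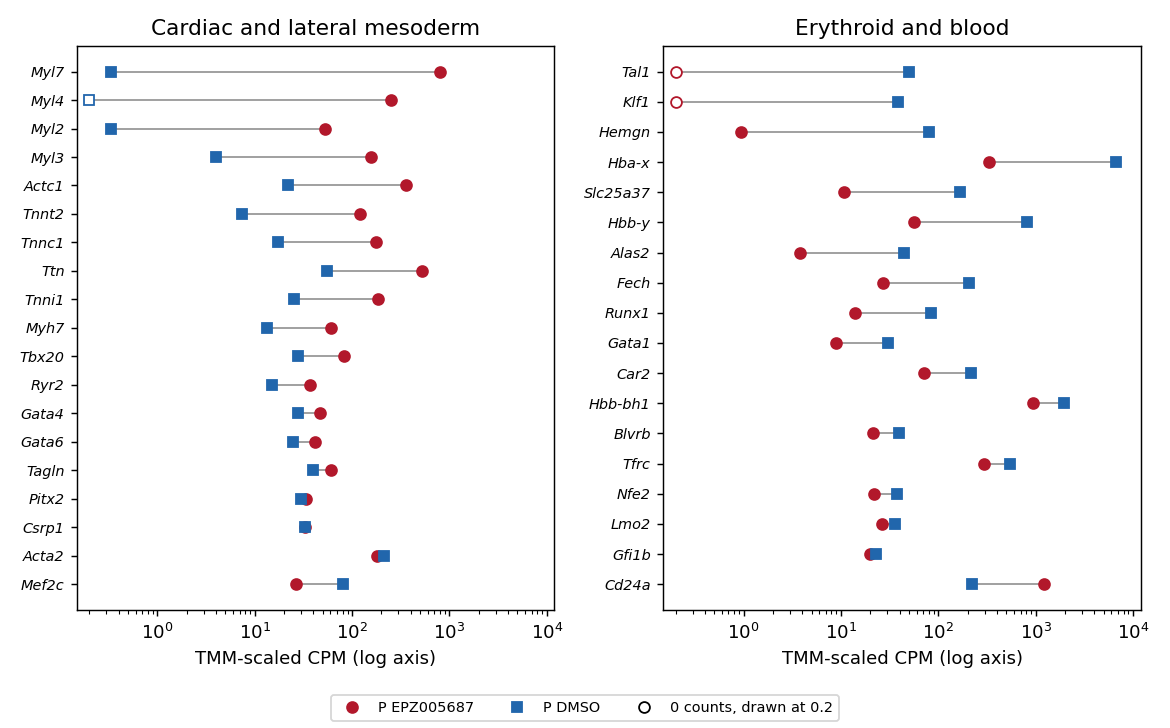
TMM-scaled CPM on a log axis with EPZ005687 (circles) and with DMSO (squares) for the 19 cardiac (left) and 18 of the 19 erythroid (right) genes with 100 or more counts, 1 library each; open symbols mark 0 counts. Myl7 had 1704 counts with EPZ005687 and 1 with DMSO, and Klf1 0 with EPZ005687 against 116 with DMSO, so the 2 panels lean in opposite directions.

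Endothelial genes, which share a precursor with blood, were lower or near equal. Of 23 listed, 7 had 100 or more counts, 2 were at least 4-fold lower and 0 at least 4-fold higher, with a median of -0.62. Fli1, an ETS transcription factor of vessels and blood, had 15 counts with EPZ005687 and 897 with DMSO, 42.7-fold lower (25.8 to 76.7). Tek, the receptor TIE2, had 22 counts with EPZ005687 and 190 with DMSO (6.17-fold lower, 3.96 to 10.1). Pecam1, a junction protein of vessels, had 23 counts with EPZ005687 and 127 with DMSO (3.94-fold lower, 2.52 to 6.45). The other vessel receptors lay closer together, Kdr with 55 counts with EPZ005687 against 102 with DMSO (1.32-fold lower, 0.945 to 1.87) and Flt1 with 138 with EPZ005687 and 171 with DMSO (1.13-fold higher, 0.896 to 1.42). Both intervals include equal levels.

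Visceral endoderm, the nutritive layer around the early embryo, gave a mixed picture. Among 29 of 40 listed genes with 100 or more counts, 2 were called higher and 8 lower, with a median of -0.68, and summed levels were 18003 CPM with EPZ005687 and 24051 CPM with DMSO. Afp, a serum protein of this layer, was 1.08-fold lower (1.05 to 1.11) and higher under scaling by library totals or DESeq2 size factors, so it has no direction. Single carriers of lipid, iron and retinol were lower, while 8 of the 29 genes had a ratio above 1. Apoa2, of lipid transport, had 23 counts with EPZ005687 and 1016 with DMSO (31.6-fold lower, 20.9 to 50). Trf, transferrin, had 446 counts with EPZ005687 and 5874 with DMSO (9.41-fold lower, 8.54 to 10.4), and Rbp4, the retinol carrier, 1442 with EPZ005687 against 11443 with DMSO (5.67-fold lower, 5.37 to 5.99). Ctsz, a lysosomal protease, had 146 counts with EPZ005687 and 1792 with DMSO (8.77-fold lower, 7.4 to 10.5). On the high side stood Spink1, a secreted trypsin inhibitor, with 10510 counts with EPZ005687 and 1147 with DMSO (12.8-fold, 12.1 to 13.6), and Hhex, a homeobox factor of anterior endoderm, with 253 counts with EPZ005687 against 37 with DMSO (9.57-fold, 6.76 to 13.9). Foxa1 and Foxa2, endoderm transcription factors, were 1.73-fold (1.41 to 2.14) and 2.68-fold (1.84 to 3.93) higher.

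In parietal endoderm, which lays down basement membrane, 14 of 17 listed genes had enough counts and 1 was called. This was Thbd, thrombomodulin, with 6 counts with EPZ005687 and 133 with DMSO (15.8-fold lower, 7.09 to 43.9). Collagen IV genes were higher by less than 4-fold, Col4a1 with 1014 counts with EPZ005687 and 867 with DMSO (1.64-fold, 1.49 to 1.79) and Col4a2 with 521 with EPZ005687 and 317 with DMSO (2.3-fold, 2 to 2.65). Sparc, a matrix protein, had 1577 counts with EPZ005687 against 3561 with DMSO, 1.61-fold lower (1.52 to 1.71).

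Mesenchyme and extracellular matrix genes leaned higher. Of 30 listed, 14 had 100 or more counts, with 3 called higher, 1 lower and a median of 1.1. Ctgf, a matrix-associated growth regulator, had 268 counts with EPZ005687 and 29 with DMSO (12.9-fold, 8.8 to 19.7). Tgfbi, a matrix adhesion protein, had 120 counts with EPZ005687 and 37 with DMSO (4.54-fold, 3.12 to 6.75), and Col5a1, a fibrillar collagen, 100 with EPZ005687 and 34 with DMSO (4.12-fold, 2.76 to 6.27). Fn1, fibronectin, had 1780 counts with EPZ005687 against 1177 with DMSO (2.12-fold, 1.97 to 2.28) and Vim, the mesenchymal filament vimentin, 611 with EPZ005687 and 392 with DMSO (2.18-fold, 1.92 to 2.48). Fbln1, fibulin 1, was the called exception with 10 counts with EPZ005687 and 143 with DMSO (10.2-fold lower, 5.4 to 21.8).

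Few genes of early germ layers reached the minimum. Of 29 listed for the primitive streak and nascent mesoderm, 4 had 100 or more counts, and Apela, the peptide ligand of the apelin receptor, was the called one with 897 counts with EPZ005687 and 83 with DMSO (15.1-fold higher, 12.1 to 19.2). T was 2.25-fold higher (1.64 to 3.11). Eomes, a streak factor below the minimum and named after its values were seen, had 42 counts with EPZ005687 against 3 with DMSO. From paraxial mesoderm only Foxc1, a forkhead factor, had enough counts, with 144 with EPZ005687 and 9 with DMSO (22.4-fold higher, 11.5 to 50). In the allantois list of 17 genes 3 had enough counts and Ahnak, a large scaffold protein, was called with 442 with EPZ005687 and 3662 with DMSO (5.92-fold lower, 5.36 to 6.55). Among germ cell genes Ifitm1, an interferon-induced membrane protein, was called with 882 counts with EPZ005687 against 112 with DMSO (11-fold higher, 9.05 to 13.5), while Prdm1, which specifies germ cells, had 50 with EPZ005687 and 81 with DMSO.

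Of 18 listed epiblast and pluripotency genes, 7 had 100 or more counts, 4 were called lower and 0 higher, 6 had a ratio below 1 and 1 above, and the median was -2.26. Sall4, a zinc finger factor of the epiblast, had 297 counts with EPZ005687 and 8413 with DMSO (20.2-fold lower, 18 to 22.8). Lin28a, which blocks let-7 microRNA maturation, had 39 counts with EPZ005687 and 1895 with DMSO (34.7-fold lower, 25.3 to 49). Trim71, a let-7 target that binds mRNA, had 22 counts with EPZ005687 against 375 with DMSO (12.2-fold lower, 7.92 to 19.7), and L1td1, an RNA-binding protein, 28 with EPZ005687 and 190 with DMSO (4.85-fold lower, 3.25 to 7.49). The core factors were scarce in both libraries, Pou5f1 with 19 counts with EPZ005687 and 3 with DMSO (8.87-fold higher, 2.61 to 46.8) and Nanog with 5 with EPZ005687 against 20 with DMSO. Of 35 listed neural and anterior ectoderm genes, 3 had enough counts and 0 were called. Sfrp1, a Wnt antagonist, had 58 counts with EPZ005687 and 234 with DMSO (2.88-fold lower, 2.15 to 3.91) and Ncam1, a neural adhesion protein, 74 with EPZ005687 and 199 with DMSO (1.92-fold lower, 1.46 to 2.54). Sox9, the 1 neural crest gene with enough counts, had 18 with EPZ005687 against 164 with DMSO (6.51-fold lower, 3.99 to 11.3). In the trophoblast list, with 5 of 20 genes used, Gata3 had 16 counts with EPZ005687 and 117 with DMSO and Furin, a proprotein convertase, 13 with EPZ005687 and 156 with DMSO, both called lower, and the defining markers Elf5, Tpbpa and Prl3d1 had at most 1 count with EPZ005687 and at most 6 with DMSO.

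**Figure D3:**
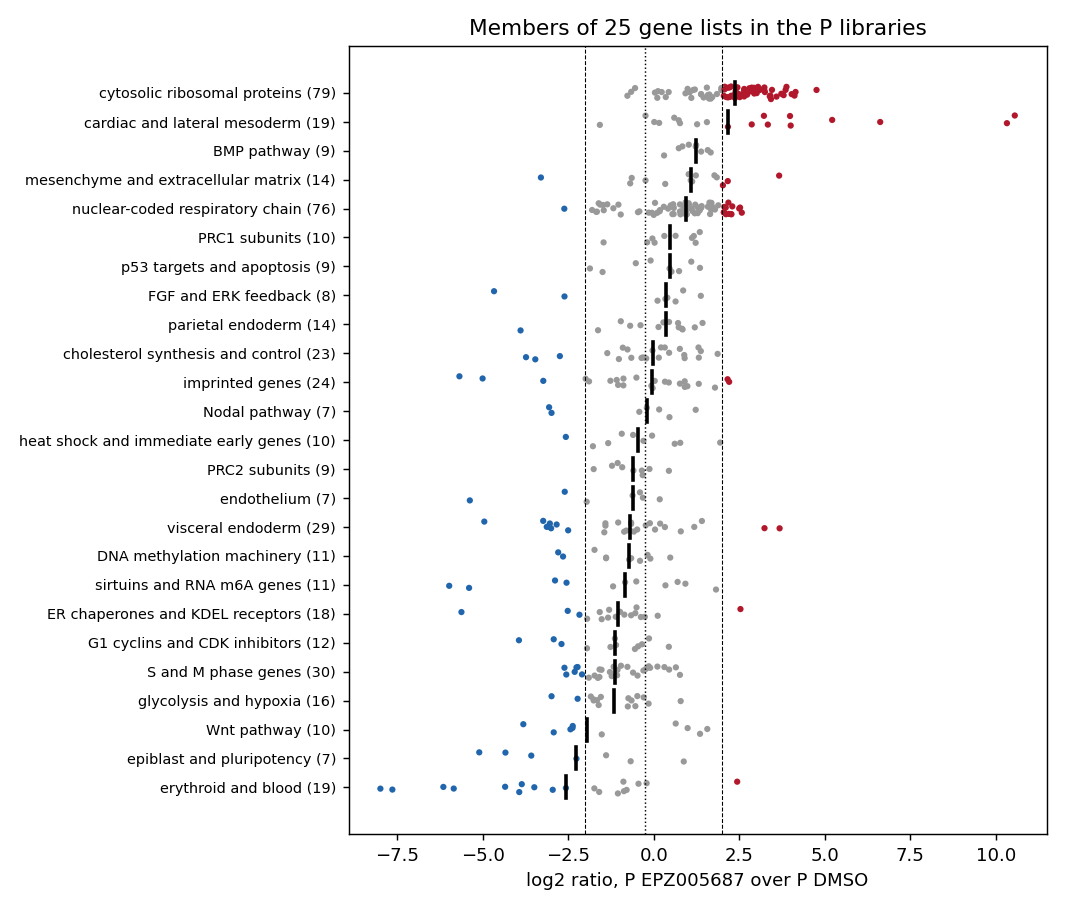
Each point is the log2 ratio, EPZ005687 over DMSO, of a gene with 100 or more counts in P, in 25 lists with the number of such genes in brackets; vertical bars are list medians, the dotted line is the median of all 6598 genes at -0.26, and dashed lines mark 4-fold. List medians run from -2.57 (erythroid and blood) to 2.38 (cytosolic ribosomal proteins).

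The transcripts of the inhibitor's target and its complex were measured next; they say nothing of enzyme activity. Of 15 listed PRC2 subunits and partners, 9 had 100 or more counts and 0 were called in either direction, with a median log2 ratio of -0.59. Ezh2 had 412 counts with EPZ005687 and 1093 with DMSO, 1.9-fold lower (1.69 to 2.13). Suz12, the core scaffold subunit, had 152 counts with EPZ005687 against 443 with DMSO (2.08-fold lower, 1.73 to 2.52), and Eed, which binds the H3K27me3 mark, 274 with EPZ005687 and 282 with DMSO (1.36-fold higher, 1.15 to 1.61). Rbbp7, a histone chaperone shared with other complexes, had 2020 counts with EPZ005687 and 9557 with DMSO (3.38-fold lower, 3.22 to 3.55). Of the accessory subunits, Aebp2 was 2.33-fold (1.88 to 2.92) and Jarid2 1.51-fold lower (1.21 to 1.89), and Mtf2 was 1.09-fold lower with an interval from 0.98 to 1.21 and higher by library totals. Ezh1, the paralogous enzyme, lay below the minimum with 1 count with EPZ005687 against 61 with DMSO, which is 43.6-fold lower with an interval of 7.53 to 1749, and is named after its values were seen.

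PRC1, H3K27 demethylase and DNA methylation genes completed the chromatin group. PRC1 had 10 of 22 genes in use, 0 called and a median of 0.47. Bmi1, a core PRC1 subunit, had 201 counts with EPZ005687 and 120 with DMSO (2.34-fold higher, 1.86 to 2.96), and Rnf2, the ubiquitin ligase of the complex, 290 with EPZ005687 and 399 with DMSO (1.02-fold higher, 0.872 to 1.19). Among the 4 genes for enzymes that remove H3K27 methylation or acetylate the residue, Kdm6b, a demethylase, was the called one with 57 counts with EPZ005687 and 1465 with DMSO, 18.4-fold lower (14.1 to 24.4). Its relative Kdm6a had 120 counts with EPZ005687 against 241 with DMSO (1.43-fold lower, 1.15 to 1.8), and the acetyltransferase genes Ep300 and Crebbp were 1.08-fold (0.805 to 1.44) and 1.5-fold (1.15 to 1.94) higher. In the DNA methylation list 11 of 15 genes were in use and 2 were called lower. Zfp57, which protects methylation at imprinted loci, had 70 counts with EPZ005687 and 683 with DMSO (6.97-fold, 5.44 to 9.05), and Dnmt3a, a de novo methyltransferase, 45 with EPZ005687 and 399 with DMSO (6.33-fold, 4.65 to 8.82). Dnmt3b, its partner enzyme, was 2.63-fold lower (2.1 to 3.32).

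H3K27me3 commonly covers families of developmental regulators, and of these the Hox and other homeobox genes had few counts with either treatment. Of 39 Hox genes, 1 had 100 or more counts, Hoxb4 with 9 counts with EPZ005687 and 113 with DMSO (8.97-fold lower, 4.56 to 20.1). The family summed to 54.5 CPM with EPZ005687 and 71.9 CPM with DMSO. Hoxb4 alone held 4.232 CPM of the sum with EPZ005687 and 37.958 CPM of the sum with DMSO. The lower sum thus rested on Hoxb4, and without Hoxb4 the family sum was higher with EPZ005687 than with DMSO. With EPZ005687 15 Hox genes had 0 counts, and with DMSO 16. Of 56 genes of other homeobox and paired-box families, among them Pax, Lhx, Nkx, Irx, Dlx and Msx, none reached 100 counts. Their summed level was 215 CPM with EPZ005687 and 104 CPM with DMSO, and with EPZ005687 10 and with DMSO 27 of them had 0 counts. Of all 23127 genes, 4603 had 0 counts with EPZ005687 and 5380 with DMSO. At a minimum of 20 counts, 1804 genes were at least 4-fold higher and 1463 lower. Whether these families differ from other genes with few counts was not tested. Among 10 of 44 forkhead genes in use, Foxc1 was called higher and Foxn3 (50 counts with EPZ005687 against 760 with DMSO) and Foxn2 (77 with EPZ005687 and 672 with DMSO) lower. Among 4 of 6 Gata genes in use Gata3 was called lower, and none of the 3 T-box genes in use was called. Cdkn2a, a well-known Polycomb target that encodes cell cycle inhibitors, had 5 counts with EPZ005687 and 0 with DMSO, at least 2.33-fold higher against the floor, with an interval from 1.28-fold.

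Genes of cell division lay mostly on the low side. All 30 listed S and M phase genes had 100 or more counts, 6 were called lower and 0 higher, 25 had a ratio below 1, beside 3837 of all 6598 genes, and the median was -1.12. Top2a, the mitotic topoisomerase, had 443 counts with EPZ005687 and 2972 with DMSO (4.79-fold lower, 4.34 to 5.31). Mcm3 and Mcm6, subunits of the replicative helicase, had 49 and 86 counts with EPZ005687 and 422 and 600 counts with DMSO, 6.15-fold (4.57 to 8.45) and 4.98-fold lower (3.97 to 6.32). Cdc20, an activator of the anaphase-promoting complex, had 81 counts with EPZ005687 against 670 with DMSO (5.91-fold lower, 4.69 to 7.54), and Ccna2, cyclin A2, 59 with EPZ005687 and 389 with DMSO (4.71-fold lower, 3.57 to 6.3). Tyms, thymidylate synthase, was an exception at 1176 counts with EPZ005687 and 1205 with DMSO (1.37-fold higher, 1.26 to 1.48).

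Of the G1 cyclins and CDK inhibitors 12 of 17 were in use, with 3 called lower, 0 higher and a median of -1.12. Both brakes and drivers were among them. The inhibitor gene Cdkn1b (p27) had 9 counts with EPZ005687 and 202 with DMSO (16-fold lower, 8.28 to 35.6), and Cdkn2d 10 with EPZ005687 against 94 with DMSO (6.72-fold lower, 3.49 to 14.5). Ccnd1, cyclin D1, had 24 counts with EPZ005687 and 259 with DMSO (7.71-fold lower, 5.07 to 12.3). Cdkn1c (p57), an imprinted inhibitor, had 745 counts with EPZ005687 and 768 with DMSO and was 1.36-fold higher (1.23 to 1.5). Of 9 p53 target and apoptosis genes in use 0 were called, Trp53 itself being 3.66-fold lower (2.85 to 4.76) and Mdm2, its feedback inhibitor, 1.67-fold higher (1.4 to 2).

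The signalling pathways of gastrulation differed in their lean. All 9 BMP pathway genes in use, of 22 listed, were higher by less than 4-fold, with a median of 1.23. Id3 and Id2, direct targets of BMP signalling, had 359 and 1430 counts with EPZ005687 and 158 and 1120 counts with DMSO, 3.18-fold (2.63 to 3.86) and 1.79-fold higher (1.65 to 1.93). Bambi, a decoy receptor, had 242 counts with EPZ005687 against 113 with DMSO (3-fold, 2.39 to 3.78), Smad1, a signal transducer, 161 with EPZ005687 and 95 with DMSO (2.37-fold, 1.83 to 3.09), and the ligand Bmp2 66 with EPZ005687 and 35 with DMSO (2.64-fold, 1.73 to 4.1). The receptor Bmpr1a lay nearest to equal, with 385 counts with EPZ005687 against 437 with DMSO (1.23-fold, 1.07 to 1.42). Smad6 and Smad7, inhibitors of the pathway, lay below the minimum with 2 and 20 counts with EPZ005687 and 15 and 58 with DMSO, both the other way, and were named after their values were seen.

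In the Wnt pathway 10 of 24 genes were in use, with 5 called lower and 0 higher, and a median of -1.94. Znrf3, which removes Wnt receptors from the surface, had 37 counts with EPZ005687 and 736 with DMSO (14.2-fold lower, 10.2 to 20.3). Lrp6, the Wnt co-receptor, had 46 counts with EPZ005687 and 351 with DMSO (5.45-fold lower, 4 to 7.58). The nuclear factors Tcf7l1 and Tcf7l2 had 17 and 248 counts with EPZ005687 and 126 and 1796 counts with DMSO, 5.29-fold (3.18 to 9.38) and 5.17-fold lower (4.53 to 5.93). The fifth was Ccnd1. Ctnnb1, beta-catenin, went the other way with 2467 counts with EPZ005687 and 1351 with DMSO (2.56-fold higher, 2.39 to 2.73). Axin2, the classic feedback target, was below the minimum with 10 counts with EPZ005687 against 1 with DMSO and is named after its values were seen.

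The Notch, FGF, Nodal, retinoic acid and Hedgehog lists each held 1 to 3 called genes. Notch2, a receptor, had 93 counts with EPZ005687 and 4668 with DMSO (35.9-fold lower, 29.2 to 44.5), while the receptor Notch3 had 77 with EPZ005687 and 23 with DMSO (4.69-fold higher, 2.91 to 7.83) and the target Hes1 104 with EPZ005687 and 30 with DMSO (4.85-fold higher, 3.21 to 7.55); these were the 3 called among 6 Notch genes in use. Spry2, a feedback inhibitor of FGF signalling, had 20 counts with EPZ005687 against 727 with DMSO (26-fold lower, 16.7 to 42.8), and the ligand Fgf10 44 with EPZ005687 and 379 with DMSO (6.15-fold lower, 4.5 to 8.61), 2 of 8 FGF genes. Skil, a corepressor of SMAD proteins, had 123 counts with EPZ005687 and 1371 with DMSO (7.96-fold lower, 6.62 to 9.66), and with Furin made 2 called among 7 Nodal genes. Dhrs3, which turns retinal back to retinol, had 3 counts with EPZ005687 against 235 with DMSO (56-fold lower, 18.9 to 273) and with Rbp4 made 2 called among 6 retinoic acid genes, while Cyp26a1, which degrades retinoic acid, had 145 counts with EPZ005687 and 73 with DMSO (2.78-fold higher, 2.08 to 3.74). Cdon, a co-receptor for Hedgehog, had 102 counts with EPZ005687 and 18 with DMSO (7.93-fold higher, 4.78 to 13.9), and was the 1 called among 3 Hedgehog genes.

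Genes of the translation machinery were the most frequent called group on the high side. Of 86 listed cytosolic ribosomal protein genes 79 had 100 or more counts, 51 were called higher and 0 lower, and the median was 2.38. They held 14.8% of all counts with EPZ005687 and 3.47% with DMSO. Rps20 had 5741 counts with EPZ005687 and 296 with DMSO (27.1-fold, 24.2 to 30.6), Rpl39 2639 with EPZ005687 against 208 with DMSO (17.8-fold, 15.4 to 20.6) and Rps27a 9156 with EPZ005687 and 869 with DMSO (14.7-fold, 13.8 to 15.8). Not every member was far apart, since Rpl5 had 10206 counts with EPZ005687 and 13292 with DMSO (1.07-fold, 1.05 to 1.1). Many ribosomal protein genes have near-identical pseudogenes, and how reads shared with them were counted is not given, so single members are uncertain. Rn45s, also from a repeated locus, had 142164 counts with EPZ005687 against 1836 with DMSO (108-fold, 104 to 114). Lars2, the mitochondrial leucyl-tRNA synthetase, had 3528 counts with EPZ005687 and 148 with DMSO (33.4-fold, 28.3 to 39.6), whereas among 7 such synthetases in use Rars2 was called lower (73 counts with EPZ005687 and 423 with DMSO, 4.14-fold, 3.22 to 5.38).

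Of 84 listed nuclear-coded genes of the respiratory chain 76 were in use, 13 were called higher and 1 lower, and the median was 0.96. Uqcrb and Uqcrh of complex III had 2454 and 1832 counts with EPZ005687 and 576 and 453 counts with DMSO, 5.96-fold (5.44 to 6.54) and 5.66-fold higher (5.11 to 6.29). Cox6c of cytochrome c oxidase had 1876 counts with EPZ005687 against 456 with DMSO (5.76-fold, 5.2 to 6.39). The called exception was Uqcrc1, a large subunit of complex III, with 208 counts with EPZ005687 and 1787 with DMSO (6.14-fold lower, 5.31 to 7.12).

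Close relatives among cytoskeletal genes differed in opposite directions. Actb, cytoplasmic beta-actin, had 2035 counts with EPZ005687 and 161453 with DMSO, 56.7-fold lower (54.3 to 59.2), and took 0.0936% of the EPZ005687 library and 4.73% of the DMSO library. Actg1, cytoplasmic gamma-actin, had 4567 counts with EPZ005687 and 4588 with DMSO and was 1.39-fold higher (1.34 to 1.45). Tubb5, a beta-tubulin, had 1261 counts with EPZ005687 against 44087 with DMSO (25-fold lower, 23.6 to 26.4). Tmsb4x, an actin-sequestering peptide, was called the other way with 3921 counts with EPZ005687 and 836 with DMSO (6.57-fold higher, 6.09 to 7.08). Actc1, described above, was the other called member on the high side among 16 genes in use. Actb and Tubb5 have processed pseudogenes, so their counts carry the same uncertainty as those of the ribosomal proteins.

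Among secretory, metabolic and stress genes, 2 lists leaned low and single members stood far apart. Of 18 endoplasmic reticulum chaperone and KDEL receptor genes in use, 16 had a ratio below 1, with a median of -1.05. Of 16 glycolysis and hypoxia genes 15 did, beside 3837 of all 6598 genes. Kdelr2, which returns proteins to the endoplasmic reticulum, had 196 counts with EPZ005687 and 13552 with DMSO (49.4-fold lower, 42.9 to 57.2), while its paralog Kdelr1 had 118 with EPZ005687 and 28 with DMSO (5.9-fold higher, 3.88 to 9.25). Herpud1 and Canx, of protein quality control, were 5.75-fold (4.34 to 7.76) and 4.51-fold lower (4.29 to 4.74), so 3 of 18 genes of this list were called lower. Of 23 genes of cholesterol synthesis and control, 3 were called lower, near the 12.2% of all genes in use, and the median was -0.04. Among the 3 were Insig1, an endoplasmic reticulum protein of sterol feedback, with 368 counts with EPZ005687 and 6866 with DMSO (13.3-fold lower, 12 to 14.8), and Sc5d, which was 11-fold lower (9.78 to 12.5). Glycolysis genes had a median of -1.15 over 16, with Pfkl, liver phosphofructokinase, at 27 counts with EPZ005687 against 304 with DMSO (8.04-fold lower, 5.42 to 12.4) and Hk2, hexokinase 2, at 111 with EPZ005687 and 729 with DMSO (4.69-fold lower, 3.84 to 5.78). Of 10 heat shock and immediate early genes Dnajb1, a co-chaperone, was called (6.01-fold lower, 4.08 to 9.17), and of 10 genes of the integrated stress response 0 were.

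Imprinted genes, many of them regulated by parental DNA methylation, did not lean one way. Of 24 in use, 2 were called higher and 3 lower, near the 5.2% and 12.2% of all genes in use. Igf2r, the maternally expressed receptor that clears IGF2, had 210 counts with EPZ005687 and 9453 with DMSO (32.2-fold lower, 28 to 37). Impact and Peg12, paternally expressed, had 351 and 3 counts with EPZ005687 and 4615 and 245 counts with DMSO, 9.39-fold (8.42 to 10.5) and 58.3-fold lower (19.7 to 285). Plagl1, a zinc finger factor, had 400 counts with EPZ005687 and 121 with DMSO (4.63-fold higher, 3.77 to 5.72), and Mcts2 94 with EPZ005687 against 29 with DMSO (4.54-fold higher, 2.96 to 7.14). Genes for RNA methylation and sirtuins were called lower in 4 of 11 cases. These were Sirt6, a deacylase (9 counts with EPZ005687 and 832 with DMSO, 66-fold, 34.6 to 145), Alkbh5, an m6A eraser (98 with EPZ005687 and 5816 with DMSO, 42.4-fold, 34.7 to 52.3), Ythdf2, an m6A reader (196 with EPZ005687 against 2033 with DMSO, 7.41-fold, 6.4 to 8.62), and Wtap of the m6A writer (317 with EPZ005687 and 2602 with DMSO, 5.86-fold, 5.22 to 6.61).

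Sex-linked transcripts separated the libraries. Eif2s3y, Ddx3y and Kdm5d of the Y chromosome had 488, 127 and 114 counts with EPZ005687 and 0, 4 and 2 counts with DMSO, and Eif2s3y was at least 228-fold higher against the floor, with an interval from 184-fold. Xist, the noncoding RNA that silences an X chromosome in female cells, had 15 counts with EPZ005687 and 459 with DMSO (21.9-fold lower, 13.1 to 39.4). The labels do not give the sex of the embryos, and sex and treatment cannot be told apart for any gene. Among 274 X-linked genes in use 22 (8.03%) were called higher and 19 (6.93%) lower, and among 6312 autosomal genes 317 (5.02%) and 784 (12.4%).

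Several of the largest ratios outside muscle, Y-linked and ribosomal RNA genes were of genes with few counts in DMSO. Wfikkn1, a secreted protein that binds myostatin-like ligands, had 124 counts with EPZ005687 and 1 with DMSO (174-fold, 30.6 to 6911). Sspo, the extracellular protein SCO-spondin, had 148 counts with EPZ005687 against 3 with DMSO (69.1-fold, 23.2 to 339), Sft2d3 135 with EPZ005687 and 3 with DMSO (63-fold, 21.1 to 309), S100a6, a calcium-binding protein, 250 with EPZ005687 and 6 with DMSO (58.3-fold, 26.4 to 160), and Rbfox3, a neuronal splicing factor, 159 with EPZ005687 against 4 with DMSO (55.6-fold, 21.3 to 207). On the low side, Cldn2, a tight junction protein, had 0 counts with EPZ005687 and 153 with DMSO and was at least 36.4-fold lower against the floor, with an interval from 29.3-fold. Repin1 and Gla, a zinc finger gene and the gene of lysosomal alpha-galactosidase, were also at 0 counts with EPZ005687, with 131 and 113 counts with DMSO.

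Others on the low side were abundant with DMSO. Slc39a1, a zinc importer, had 34 counts with EPZ005687 and 6962 with DMSO (146-fold lower, 105 to 211), and Gm2a, a lysosomal lipid-binding protein, 14 with EPZ005687 against 1782 with DMSO (90.9-fold lower, 54.1 to 167). Abcg1, a cholesterol exporter, had 4 counts with EPZ005687 and 536 with DMSO (95.7-fold lower, 37.2 to 353). Klf14 had 2 with EPZ005687 and 437 with DMSO (156-fold lower, 43 to 1293), Tmem56 2 with EPZ005687 against 321 with DMSO (115-fold lower, 31.5 to 951), and Surf1, an assembly factor of cytochrome c oxidase, 1 with EPZ005687 and 181 with DMSO (129-fold lower, 22.9 to 5135).

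The same ratio was formed for A and for ExE, to set the P ratios beside those of the other tissue. The 3 comparisons share no library, but each arm's regions carry 1 column code and may share embryos. In A, 185 of 4479 genes (4.13%) were at least 4-fold higher with EPZ005687 and 528 (11.8%) at least 4-fold lower; in ExE the counts were 188 (2.56%) and 817 (11.1%) of 7340. Of the P genes called lower, 563 had 100 or more counts in A, and 254 of them (45.1%) were called lower there too, beside 10.9% of the 4219 genes measured in both pairs. In ExE 313 of 782 (40.0%) were called lower, beside 10.9% of 6071 genes. The shared genes were 55.3% of the genes called lower in A and 47.3% of those called lower in ExE.

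Of the P genes called higher, 6 of 156 (3.85%) were called higher in A, near the 4.15% of all genes measured in both pairs. In ExE 12 of 230 (5.22%) were called higher, beside 2.01% of all genes measured in both pairs, and 10 (4.35%) lower, beside 10.9%. Of the 343 genes, 187 had under 100 counts in A and could not be called there.

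**Figure D4:**
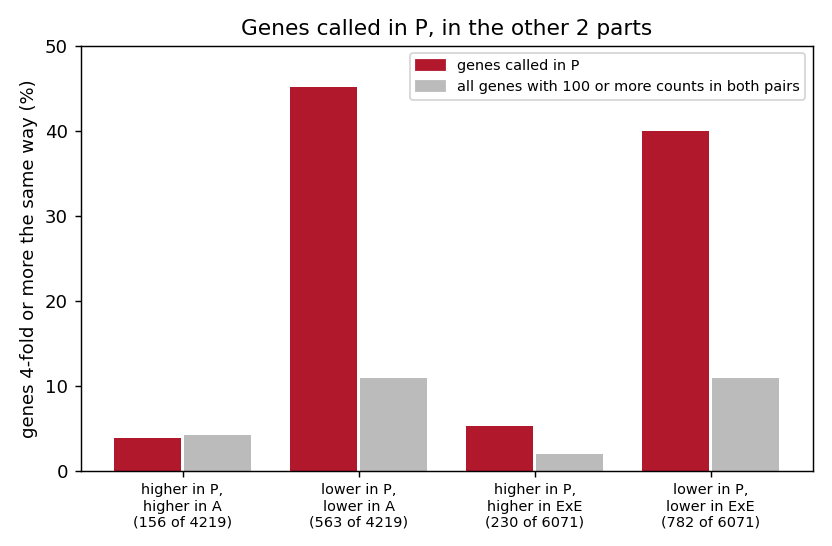
Bars give the percentage of genes called in P that were called the same way in A or ExE (red) and the same percentage over all genes with 100 or more counts in both pairs (grey), with both numbers of genes under each pair of bars. For genes lower in P the bars stand at 45.1% and 40.0%, beside 10.9% in both backgrounds.

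Several named genes were far lower in all 3 regions. The log2 ratio of Actb was -5.82 in P, -5.50 in A and -7.01 in ExE, and that of Slc39a1 was -7.18, -5.78 and -6.58. Kdelr2 stood at -5.62, -5.09 and -6.41, Kdm6b at -4.19, -5.25 and -5.75, Lin28a at -5.1, -3.76 and -4.89, and Sall4 at -4.34, -3.7 and -3.56. Xist stood at -4.41, -3.86 and -3.38. Ezh2 itself was at -0.92, -1.44 and -1.34. Of the 10 Wnt pathway genes in use in P, 9 had 100 or more counts in A, with 6 called lower and a median of -2.52. In ExE 9 did, with 4 called lower and a median of -1.66. Over all genes measured in both pairs, 10.9% were called lower in A and 10.9% in ExE.

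The muscle and ribosomal ratios lay furthest from 1 in P. Myl7 had 1 count with EPZ005687 and none with DMSO in A, and 3 counts with EPZ005687 and 7 with DMSO in ExE. Of the 19 cardiac genes in use in P, 2 had 100 or more counts in A, with 0 called higher, and 12 in ExE, with 2 called higher. Ttn was at 3.22 in P, -0.07 in A and 2.61 in ExE. Ribosomal protein genes had median log2 ratios of 2.38 in P, 0.31 in A and 0.22 in ExE over 79, 78 and 79 genes, and Rn45s of 6.76, 3.29 and 1.9. S and M phase genes had medians of -1.12, 0.14 and 0.23 over the same 30 genes, with 6 called lower in P, 1 in A and 0 in ExE. No test of these differences between regions could be made with 1 library per region and treatment.

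The erythroid group ran in opposite directions in P and ExE. Hba-x had 46339 counts with EPZ005687 and 1310 with DMSO in ExE, a log2 ratio of 5.98, beside -4.35 in P. Of 18 erythroid genes in use in P and with 100 or more counts in ExE, 16 were called higher there, with a median of 4.33. Of all 6071 genes measured in both pairs, 2.01% were called higher in ExE. The summed level of the list in ExE was 30346 CPM with EPZ005687 and 1174 CPM with DMSO, while in A it was 534 CPM with EPZ005687 and 651 CPM with DMSO. Thus P had more erythroid RNA than ExE among the DMSO libraries and less among the EPZ005687 libraries. This difference between P and ExE was not tested. Visceral endoderm genes likewise ran apart in A, where 8 of 12 were called higher with a median of 3.56, beside 2 of 29 called higher and a median of -0.68 in P. Of all 4219 genes measured in both pairs, 4.15% were called higher in A. In A the visceral endoderm list summed to 5263 CPM with EPZ005687 and 734 CPM with DMSO. Members of both lists could reach 100 counts in ExE or A through the EPZ005687 library alone, which favours calls on the high side.

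**Figure D5:**
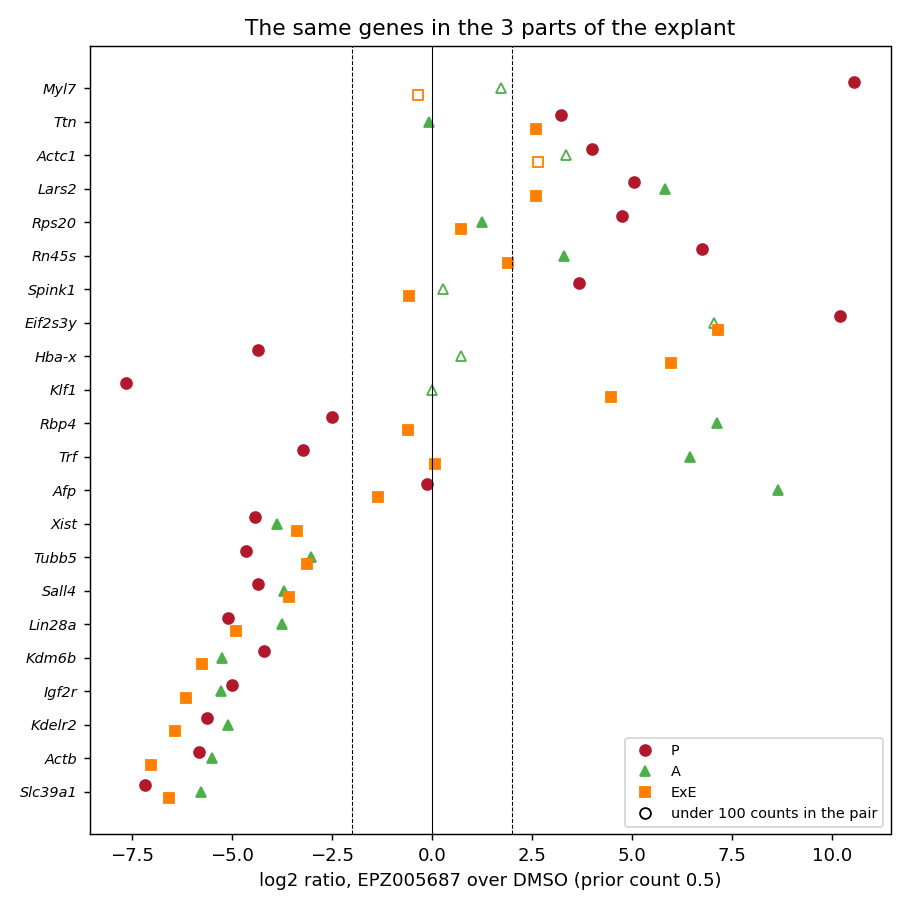
Log2 ratio of EPZ005687 over DMSO for 22 named genes in P (circles), A (triangles) and ExE (squares), 1 library per region and treatment; open symbols mark genes with under 100 counts in that pair, and dashed lines mark 4-fold. Actb lies between -5.50 and -7.01 in all 3 regions, while Hba-x lies at -4.35 in P and 5.98 in ExE.

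Called genes were not spread evenly over abundance. Of 140 genes with a mean of 1000 CPM or more, 40 (28.6%) were called higher and 38 (27.1%) lower, while of 3155 genes between 30 and 100 CPM these were 121 (3.84%) and 314 (9.95%). Genes called higher were also shorter, with a median genomic span of 11606 bases, beside 25622 bases for genes called lower and 26578 for all genes in use. Without ribosomal protein genes the median span of the higher genes was 15312 bases, beside 27092 over all others in use. The part of span and abundance in the results was not tested.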

How the data were processed

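RNA of 6 libraries was used, 1 for each of P, A and ExE with EPZ005687 or DMSO; the other 54 samples were not used here. The authors deposited whole-number read counts per gene and library, not normalized, as the values show by totals that differ between libraries. CASAVA 1.8, TopHat2 2.0.9, BWA and the build mm10 stand in the submitters' processing notes. How reads were counted, with or without strand and over which genes, is not given in the sources used here. Groups came from the sample labels.

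Entries that held dates in place of symbols (27, with 0.162% of counts in P with EPZ005687 and 0.908% with DMSO) were left out. Of the remaining symbols 99.5% matched RefSeq (GRCm38.p6). Library sizes were scaled by TMM (edgeR 4.0.16, R 4.3.3) over 13744 genes that reached 10 counts in 2 or more of the 6 libraries. Log2 ratios used a prior count of 0.5, and folds against 0 counts a floor of 3 counts per library. Intervals are 95% conditional exact binomial intervals (scipy 1.17.1); reads without molecular identifiers are not independent molecules, so they cover counting error only. The interval script was tested on simulated counts. With 1 library a side no p-value can be had.

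Genes with 100 or more counts over the 2 P libraries were used, and a gene was called at a 4-fold ratio. The members, the rule and the 51 gene lists were chosen with earlier results of these data known. No entry was matched for 1 list, the mitochondrially coded genes. Named genes were the 12 largest ratios each way that match RefSeq and are not predicted genes, up to 5 members per list with the largest ratios plus the 2 with most counts, and 18 genes always given; others are marked as named after their values were seen. Some genes that meet the rule are not reported here. Promoter sequences are from RefSeq. Alternatives were other scalings, prior counts, count minimums and folds, a stricter use of the interval and, added after seeing the data, counts without ribosomal protein genes.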

Additional observations from a re-analysis of the deposited data

Results flagged for a closer look

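The genes below were at least 4-fold apart in P in one direction and at least 4-fold apart in another region in the other direction, each with 1 library per treatment, and none of these differences between regions was tested. All values are log2 ratios, EPZ005687 over DMSO. Against ExE, 4 of the 5 genes given here were lower in P and higher in ExE. Among blood genes, Klf1 stood at -7.64 in P and 4.48 in ExE, Hemgn at -6.15 and 5.40, and Hba-x at -4.35 and 5.98. Tmem56, on neither list, stood at -6.57 in P and 2.40 in ExE. Ctgf ran the other way, with 3.67 in P and -3.29 in ExE.

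Against A, the visceral endoderm products Rbp4, Trf and Ctsz stood at -2.50, -3.23 and -3.13 in P and at 7.14, 6.45 and 2.49 in A. Plagl1, an imprinted zinc finger gene, stood at 2.20 in P and -2.22 in A.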

How the results depend on the processing

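With 1 library a side, all ratios rest on these 2 libraries and no replicate could be left out. No paired analysis was possible because each treatment has 1 P library and no test was made. Scaling by library totals gave 415 genes called higher and 700 lower, raising the share of calls that were higher to 37.2%, beside 29.9% under TMM, and moved the median log2 ratio to -0.10, a shift of 0.17; DESeq2 size factors gave 391, 732 and -0.15, a shift of 0.12. No called gene changed sign under either, but the list medians of the Sox family, cholesterol and imprinted genes did under both. Of 245 named genes, 46 left their counting interval under library totals and 29 under DESeq2 size factors. All 49 list medians moved with these shifts. A minimum of 20 counts gave 1804 higher and 1463 lower of 12412 genes with a median log2 ratio of 0.050. A minimum of 300 gave 165 and 465 of 3180 with a median log2 ratio of -0.37. At 2-fold the counts were 1110 and 1950, and at 8-fold 88 and 361. Where the nearer interval bound had to pass 4-fold, 213 were higher and 548 lower. Without ribosomal protein genes, added after seeing the data, 292 were higher and 805 lower. At 20 or more counts the list median turned to 0.86 for neural crest genes and to -1.15 for small RNA and rRNA genes, each resting on 1 gene at 100 counts; more genes enter at the lower minimum. TMM from the P libraries alone gave the same ratios as the main scaling, with 343 and 805 genes called, so it was no separate check. TMM without Rn45s and ribosomal protein genes shifted the median log2 ratio by 0.026 and kept all named genes within their counting interval. The list median of the Sox family changed sign under it.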

Other observations

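The listed genes below were not named above. Igf2, the fetal growth factor, had 605 counts with EPZ005687 and 498 with DMSO in P (1.7-fold higher, 1.51 to 1.92). Sox11, a factor of neural and mesenchymal precursors, had 361 counts with EPZ005687 and 719 with DMSO (1.42-fold lower, 1.25 to 1.62), and Sox5 74 with EPZ005687 and 47 with DMSO (2.2-fold higher, 1.51 to 3.25). Krt19 and Krt7, keratins of simple epithelia, had 215 and 74 counts with EPZ005687 and 404 and 211 counts with DMSO, 1.34-fold (1.13 to 1.59) and 2.04-fold lower (1.56 to 2.69). Hsp90aa1 and Hspa8, abundant chaperone genes, had 4248 and 3587 counts with EPZ005687 and 9037 and 17225 counts with DMSO, 1.52-fold (1.47 to 1.58) and 3.43-fold lower (3.31 to 3.56).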
